A study of Mus musculus with 15 samples.

Results

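A set of 10 genes of the Cyp2 family of cytochrome P450 enzymes was followed across LSZ2 and LSZ4, mouse lines from non-small cell lung cancer, that carried control hairpins or hairpins against Siva. The genes were Cyp2c65, Cyp2c66, Cyp2c55, Cyp2c44, Cyp2j6, Cyp2s1, Cyp2b10, Cyp2e1, Cyp2f2 and Cyp2d22, out of 36282 genes on the array, and every non-control probe that the files name for them was taken, 12 in all. They were picked with the effect of the Siva hairpins on these same arrays known, so values for shSiva against control describe the genes and support nothing. The comparison between the Siva hairpins uses the same shSiva arrays and is not independent of this choice. Each line received 4 hairpins: shGFP in the vector pLKO.1 and shLacZ in the vector LL37 as controls, and shSiva1 and shSiva2 in the vector pLKO TRC2.0 against Siva. All cells were infected with virus made in 293T cells, and all but the shLacZ cells were kept in puromycin for 3 days. RNA was taken 2 days after plating. Each line and hairpin had 2 arrays, except shGFP in LSZ2 with 1, giving 15 one-colour arrays, 7 of LSZ2 and 8 of LSZ4. The labels do not say that replicates were separate cultures, so p-values measure the spread between these samples only, and whether the shGFP arrays of LSZ4 carry the same hairpin is not stated.

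Cytochrome P450 enzymes of the Cyp2 family are haem proteins of the endoplasmic reticulum that oxidise drugs, toxins, retinoids and fatty acids with electrons passed on by the reductase Por. Members of the Cyp2c and Cyp2j subfamilies turn arachidonic acid into epoxides or hydroxylated products, which epoxide hydrolases and other enzymes remove. In the lung, Cyp2f2 is a marker of club cells and activates naphthalene, Cyp2s1 is made in airway and gut epithelium, and Cyp2c65, Cyp2c66 and Cyp2c55 are best known from the intestine.

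Cyp2c65, Cyp2c66 and Cyp2c55 sit close together, and Cyp2c44 lies farther along the same chromosome. Genes of this subfamily are alike in sequence, so the probes that told the Cyp2c genes apart were compared first. Each probe is 60 bases long. The stretches below are 30 bases of each Cyp2c probe, 5′ to 3′, with capitals marking the longest run that the stretch shares with another of the Cyp2c probes (Cyp2c65 with Cyp2c55, Cyp2c66 and Cyp2c55 with each other, and Cyp2c44 with Cyp2c65).
Cyp2c65: TCATTCCcatctaaatggatttccccctaa
Cyp2c66: TCTCTGACcctatcaccagagttctgggat
Cyp2c55: ctgttgctatgctggtaTCTCTGACttctc
Cyp2c44: ccacacacatTTTCCTattctcacgtaaaa
On the mm9 build these probes lie at chr19:39167981-39168040 for Cyp2c65, chr19:39261183-39261242 for Cyp2c66, chr19:39116674-39116733 for Cyp2c55 and, on the reverse strand, chr19:44079535-44079594 for Cyp2c44, which RefSeq now names Cyp2c23. The longest run shared by the Cyp2c65 and Cyp2c66 probes was 6 bases, and no pair of the Cyp2c probes shared more than 8. No other probe on the array shared more than 16 bases with any of the 12 probes. The Cyp2c66 probe was the only one of the 12 whose listed accessions fall on more than 1 gene, since it carries RefSeq accessions of both Cyp2c66 and Cyp2c65. Binding of each probe to the transcripts of the other genes was not tested here, so the Cyp2c66 signal may hold Cyp2c65 transcript.

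The remaining probes lie, on mm9, at chr7:26587495-26587554 for Cyp2s1, chr7:26711522-26711581 for Cyp2b10, chr7:27918570-27918629 for Cyp2f2 and chr15:82204377-82204436 for Cyp2d22. Cyp2e1 has a probe at chr7:147960628-147960687 and another at chr7:147956922-147956981, and Cyp2j6 has probes at chr4:96192532-96192591 and chr4:96183239-96183298.

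The promoters of Cyp2c65 and Cyp2c66 are shown because these genes had nearly the same pattern over the arrays. Each sequence is the 250 bases before the start of the transcript, 5′ to 3′ on the gene's strand, from RefSeq on GRCm38.p6, a later build than the one of the probes. The Cyp2c65 sequence is chr19:39060756-39061005 and the Cyp2c66 sequence is chr19:39113648-39113897, both on the forward strand, and capitals mark matches to CAAAGTCCA, a form bound by HNF4A, and to TATATAA, a form of the TATA box.
Cyp2c65: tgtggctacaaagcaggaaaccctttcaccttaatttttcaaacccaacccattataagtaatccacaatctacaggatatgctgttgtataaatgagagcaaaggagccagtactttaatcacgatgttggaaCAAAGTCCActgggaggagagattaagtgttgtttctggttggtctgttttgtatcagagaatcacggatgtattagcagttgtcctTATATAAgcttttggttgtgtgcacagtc
Cyp2c66: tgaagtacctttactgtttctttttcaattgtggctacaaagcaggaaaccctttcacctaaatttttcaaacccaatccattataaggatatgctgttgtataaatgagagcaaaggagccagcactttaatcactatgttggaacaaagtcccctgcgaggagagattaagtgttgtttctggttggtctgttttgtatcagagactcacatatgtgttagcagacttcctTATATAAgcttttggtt
Over 221 aligned bases the pair was identical at 208 (94.1%), with a longest shared run of 48 bases. Cyp2c65 aligned with the Cyp2c55 promoter over 68 bases only, with 67.6% identity. TATATAA lay 29 bases before the start in Cyp2c65 and 17 in Cyp2c66. CAAAGTCCA lay 116 bases before the start in Cyp2c65, and the aligned site 104 bases before the start of Cyp2c66 differs from it by the substitution A9C, counted from the 5′ end of the motif. Of 32851 promoters of the same length, 3.04% held TATATAA and 0.384% held CAAAGTCCA on either strand. TATATAA overlaps its own match on the opposite strand.

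The other 3 motifs were searched on both strands of the 8 promoters that the table holds, which leaves out Cyp2c44 and Cyp2d22. The motif AGATAA of the GATA factors, found in 9.99% of all promoters, lay 97 bases before the start of Cyp2c55, and AGGTCA, a core that nuclear receptors bind, found in 14%, lay 221 bases before that of Cyp2f2. TTGCGTG, the core that the dioxin receptor binds (0.925% of all promoters), was in none of the 8 windows. The motifs were picked after the sequences had been seen, and a match is a string of letters, not a site shown to be bound.

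The 75th percentile signal of an array ran from 354 to 871 intensity units, and was higher in LSZ2 (median 751) than in LSZ4 (median 495). No spot was saturated (0 of those used), and the share of spots well above background ran from 49.0% to 60.6%. Values below are log2 processed signals less the 75th percentile of their array, so a level of 0 equals that percentile. Siva1, the gene the hairpins target, ran from 5.50 to 6.75 (median 5.83) on the 7 control arrays, from 2.56 to 3.40 (median 3.14) with shSiva1 and from 3.70 to 4.35 (median 3.78) with shSiva2, with no overlap between these groups. The control arrays were all on 1 slide and the shSiva arrays all on another, so slide and vector cannot be told apart from the Siva hairpins. Comparisons between lines, between the Siva hairpins and between the controls each lie within slides, but the row and column of an array on its slide follow the hairpin and the line. Of 6 epithelial markers, 5 were well above background on all 15 arrays and Epcam on 14. Of 8 alveolar type 2 markers 3 were above background on all 15 arrays (Sftpd, Lamp3 and Abca3) and 3 on none (Nkx2-1, Sftpc and Sftpa1), and of 5 club cell markers 1 was above it on all 15 (Aldh1a1) and 2 on none (Scgb3a2 and Scgb3a1). Of 9 gut epithelium markers 5 were above background on all 15 and 2 on none (Apoa1 and Muc2). The counts on all 15 and on none were 3 and 2 of 7 hepatocyte markers (none for Alb and Cps1), 3 and 2 of 8 blood, vessel and stroma markers (none for Cdh5 and Pdgfrb), and 1 and 3 of 6 stomach markers (none for Gkn1, Gkn2 and Tff2).

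Of the 10 genes, 8 were bright enough to be tested. A gene was tested if 4 or more arrays showed its probe well above background. Cyp2f2, the club cell enzyme, was above background on 0 of 15 arrays (levels from -7.88 to -5.87), and Cyp2d22, a mouse counterpart of the human drug-metabolising CYP2D6, on 1 of 15 (from -6.87 to -4.56). Neither is interpreted further.

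Cyp2c65 and Cyp2c66, P450 enzymes of the intestine that oxidise arachidonic acid, were measured on 14 and 15 arrays. In LSZ2, Cyp2c65 read 1.68 with shGFP, 1.80 and 1.66 with shLacZ, -1.39 and -1.49 with shSiva1, and -0.07 and -0.74 with shSiva2. In LSZ4 it read -0.60 and -0.79 with shGFP, 0.25 and -0.96 with shLacZ, -5.00 and -6.50 with shSiva1, and -0.92 and -1.71 with shSiva2, where the value of -6.50 was not well above background. The LSZ2 controls were highest and the LSZ4 cells with shSiva1 lowest by a wide margin, while the LSZ4 controls overlapped the shSiva2 arrays of both lines.

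Cyp2c66 followed nearly the same order of group means, with the LSZ2 shGFP and shLacZ groups, which overlapped, in exchanged places at the top. In LSZ2 it read 1.91 with shGFP, 1.98 and 1.80 with shLacZ, -1.14 and -1.19 with shSiva1, and -0.24 and -0.49 with shSiva2. In LSZ4 it read -0.32 and -0.45 with shGFP, 0.40 and -0.70 with shLacZ, -4.46 and -4.36 with shSiva1, and -0.81 and -1.41 with shSiva2. Again the LSZ2 controls stood above all other arrays and the LSZ4 shSiva1 arrays below all others. On the 14 arrays where both probes were above background, Cyp2c66 less Cyp2c65 stayed between -0.17 and 0.54 (median 0.25). On the remaining array, LSZ4 shSiva1 replicate 2, where Cyp2c65 was below background, this difference was 2.14.

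**Figure D1:**
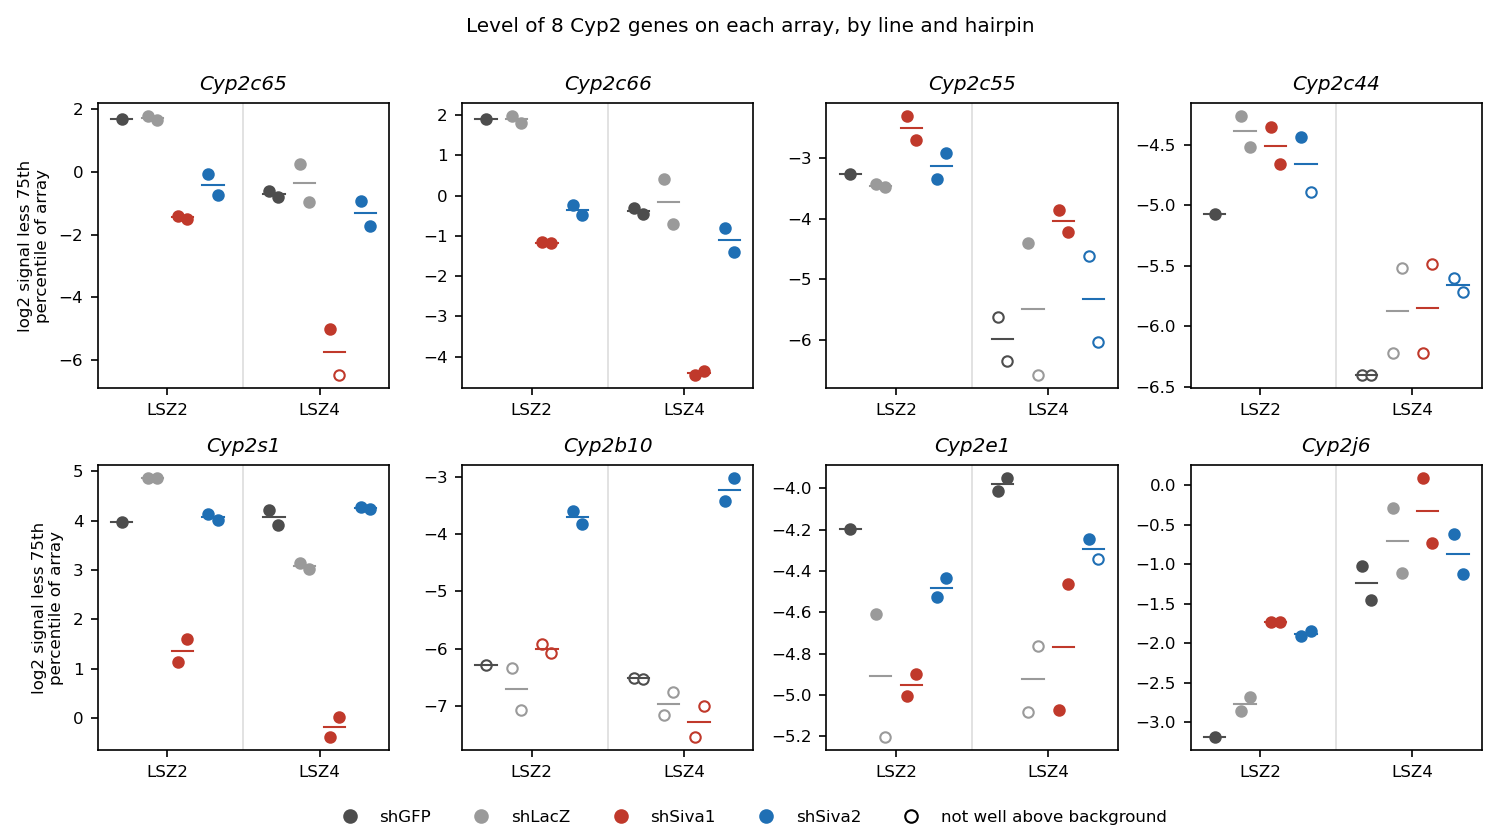
Level of the 8 tested Cyp2 genes on each array (vertical axis, log2 signal less the array's 75th percentile), grouped by line and coloured by hairpin; lines mark group means and open circles mark values not well above background. Cyp2c65, Cyp2c66 and Cyp2s1 are lowest in LSZ4 with shSiva1, Cyp2b10 is above background with shSiva2 alone, and Cyp2j6 is higher in LSZ4 than in LSZ2 on all arrays.

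Cyp2c55, which hydroxylates arachidonic acid and is best known from the colon, was measured on 10 arrays. In LSZ2 it read -3.25 with shGFP, -3.43 and -3.48 with shLacZ, -2.30 and -2.70 with shSiva1, and -3.35 and -2.91 with shSiva2. In LSZ4 it read -4.39 on 1 shLacZ array and -3.85 and -4.22 with shSiva1, and the remaining 5 LSZ4 arrays, from -6.59 to -4.61, were not well above background. Every LSZ2 value lay above every LSZ4 value.

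Cyp2c44, an arachidonic acid epoxygenase, was above background in LSZ2 only. It read -5.07 with shGFP, -4.26 and -4.52 with shLacZ, -4.35 and -4.66 with shSiva1, and -4.43 and -4.89 with shSiva2, where -4.89 was not well above background. In LSZ4 none of the 8 values, from -6.41 to -5.48, was above background, and all lay below the LSZ2 range.

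Cyp2j6, a P450 of the gut and other epithelia from the arachidonic acid epoxygenase subfamily, was measured on all 15 arrays. In LSZ2 it read -3.19 with shGFP, -2.85 and -2.68 with shLacZ, -1.74 and -1.73 with shSiva1, and -1.91 and -1.85 with shSiva2. In LSZ4 it read -1.02 and -1.46 with shGFP, -0.29 and -1.12 with shLacZ, 0.09 and -0.74 with shSiva1, and -0.62 and -1.12 with shSiva2. Every LSZ4 array lay above every LSZ2 array, and within LSZ2 the controls lay below the Siva hairpins. The second Cyp2j6 probe was above background on 1 array only (LSZ4 shSiva1 replicate 1, -4.46), and the probes had Pearson's r = 0.81 over the 15 arrays.

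Cyp2s1, which oxidises retinoids and is induced through the dioxin receptor, was above background on all 15 arrays and stood high on its own array scale. In LSZ2 it read 3.98 with shGFP, 4.87 and 4.86 with shLacZ, 1.15 and 1.60 with shSiva1, and 4.13 and 4.01 with shSiva2. In LSZ4 it read 4.22 and 3.92 with shGFP, 3.15 and 3.02 with shLacZ, -0.39 and 0.02 with shSiva1, and 4.28 and 4.24 with shSiva2. The 4 shSiva1 arrays were below all others, and shSiva2 lay within the range of the controls. In the order of group means, LSZ2 shLacZ was highest (4.86) and LSZ4 shSiva1 lowest (-0.19). Among neighbours in that order, LSZ2 shSiva2 (4.07) overlapped LSZ4 shGFP (4.07), which in turn overlapped LSZ2 shGFP (3.98).

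Cyp2b10, the phenobarbital-inducible target of the receptor CAR, was above background with shSiva2 and with no other hairpin. It read -3.59 and -3.82 in LSZ2 and -3.43 and -3.02 in LSZ4 with shSiva2. The other 11 arrays ranged from -7.55 to -5.92, none of them above background and none within the shSiva2 range.

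Cyp2e1, which oxidises ethanol and small toxins, was dim on both probes. On the brighter probe it was above background on 11 arrays and ranged from -5.21 to -3.95. It read -4.20 in LSZ2 and -4.01 and -3.95 in LSZ4 with shGFP. With shLacZ it read -4.61 and -5.21 in LSZ2 and -5.08 and -4.76 in LSZ4, of which -4.61 alone was well above background. It read -5.00 and -4.90 in LSZ2 and -5.07 and -4.46 in LSZ4 with shSiva1, and -4.53 and -4.44 in LSZ2 and -4.25 and -4.34 in LSZ4 with shSiva2. The 3 shGFP arrays were the highest, and the lines overlapped. The second probe was above background on 6 arrays and ranged from -6.24 to -3.50, with r = 0.31 between the probes.

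Between the lines, Cyp2c65, Cyp2c66 and Cyp2c55 were lower in LSZ4 than in LSZ2, Cyp2j6 was higher, and Cyp2c44 was measured in LSZ2 alone. This comparison asked whether the lines differ with the arm (control or Siva hairpin) held fixed. In limma's test 5 of the 8 genes passed (1 higher, 4 lower), where 20.3% of all 22908 genes tested passed, 13.3% higher and 7.04% lower. The median difference was -1.08 over the 8 genes and 0.23 over all genes. Cyp2c65 was 5.42-fold lower in LSZ4 (log2 difference -2.44, SE 0.64, adjusted p = 0.0242) and Cyp2c66 was 4.20-fold lower (-2.07, SE 0.47, adjusted p = 0.0122). Cyp2c55 was lower too (-2.09, SE 0.35, adjusted p = 0.00125), but only 3 of its 8 LSZ4 values were above background. With values below background raised to the floor of their array, a setting added after the values had been seen, Cyp2c55 was 2.38-fold lower (-1.25, adjusted p = 0.000136). Cyp2c44 has only a bound in LSZ4 and was at least 1.05-fold lower there (measured means -5.95 and -4.60, limma's adjusted p = 0.000234). As its 6 measured values were all in LSZ2, it could be tested only because it was brighter there, and it did not pass with values raised to the floor (-0.09, adjusted p = 0.696). Cyp2c44 therefore adds no support to the count of 5 genes or to the median of -1.08, which both include it. Cyp2j6 was 2.92-fold higher in LSZ4 (1.55, SE 0.21, adjusted p = 0.000234). The floor of an array is the dimmest signal that still counted as well above background there, and the bound for Cyp2c44 sets the LSZ2 mean against it, or against the gene's own value where that was higher.

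The line differences of these 5 genes had the same sign with each of the 4 hairpins. For Cyp2c44, which was tested only because of its LSZ2 arrays, this and its calls below add no support. With the control hairpins alone, where 5.46% of all genes passed, LSZ4 less LSZ2 was 1.94 for Cyp2j6 (adjusted p = 0.00115). Cyp2c55 also passed (adjusted p = 0.0195), with 1 of 4 LSZ4 control arrays above background and a difference of -1.01 with values raised to the floor (adjusted p = 0.0261). Cyp2c44 passed as well (adjusted p = 0.00451), but no fold is given, since 0 of the 4 LSZ4 arrays measured it and the bound is under 1. It did not pass with values raised to the floor (0.09, adjusted p = 0.804). Cyp2c65 (-2.24, adjusted p = 0.108) and Cyp2c66 (-2.16, adjusted p = 0.0726) did not pass. With the Siva hairpins alone, where 1.62% of genes passed, Cyp2j6 (1.21, adjusted p = 0.0334) and Cyp2c44 (at least 1.18-fold lower, adjusted p = 0.0262) passed, and Cyp2c55 (-1.87, adjusted p = 0.0827, or -1.46 and 0.00155 with values raised to the floor), Cyp2c65 (-2.61, adjusted p = 0.282) and Cyp2c66 (-1.99, adjusted p = 0.254) did not. Cyp2s1 (-0.83, adjusted p = 0.352), Cyp2b10 (-0.30, adjusted p = 0.715) and Cyp2e1 (0.20, adjusted p = 0.445) did not pass between the lines, with 95% intervals from -2.34 to 0.69, from -1.64 to 1.05 and from -0.25 to 0.65. With the 4 hairpins as terms in place of the arms, a fit added after the levels had been seen, Cyp2s1 passed (-0.84, adjusted p = 0.0312). Its line difference changed sign between hairpins, however. It was 0.09 with shGFP and 0.19 with shSiva2, but -1.78 with shLacZ and -1.56 with shSiva1.

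Among the limits of the line comparison, the call for Cyp2c65 was lost without LSZ2 shGFP (-2.47, adjusted p = 0.0543) or without LSZ2 shLacZ replicate 1 (-2.44, adjusted p = 0.0568), and with each line and hairpin as a random block (-2.43, adjusted p = 0.0538), while its size stayed near the -2.44 of all arrays. With the brightness of each array as a covariate, Cyp2c65 (-2.75, adjusted p = 0.134), Cyp2c66 (-2.40, 0.0646) and Cyp2c55 (-1.23, 0.0647) lost their calls, of which only Cyp2c55 became smaller in size, and with normexp background correction the differences shrank to -0.65 for Cyp2c55 and -0.29 for Cyp2c44 with their calls kept. Some marker lists moved with the line too, where 20.3% of all genes passed, 13.3% higher and 7.04% lower. Of the 7 gut epithelium markers tested 4 were lower in LSZ4 and 0 higher, and their summed level (log2 of the summed signals) ran from 7.25 to 9.14 in LSZ2 and from 5.99 to 10.1 in LSZ4. Of the 3 stomach markers tested 2 were lower and 0 higher, and their summed level ran from 1.39 to 3.63 in LSZ2 and from -2.77 to -0.53 in LSZ4, with no overlap. The counts past the threshold were 3 of 6 epithelial, 2 of 3 club cell, 2 of 5 hepatocyte, 1 of 5 blood, vessel and stroma and 0 of 4 alveolar type 2 markers. For the blood, vessel and stroma list this is 20%, near the share of all genes. The epithelial markers Krt8 and Krt18 lost their calls with quantile normalization (limma's adjusted p = 0.962 and 0.471) and with normexp (0.888 and 0.424). The part of the marker lists in the result was not tested.

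**Figure D2:**
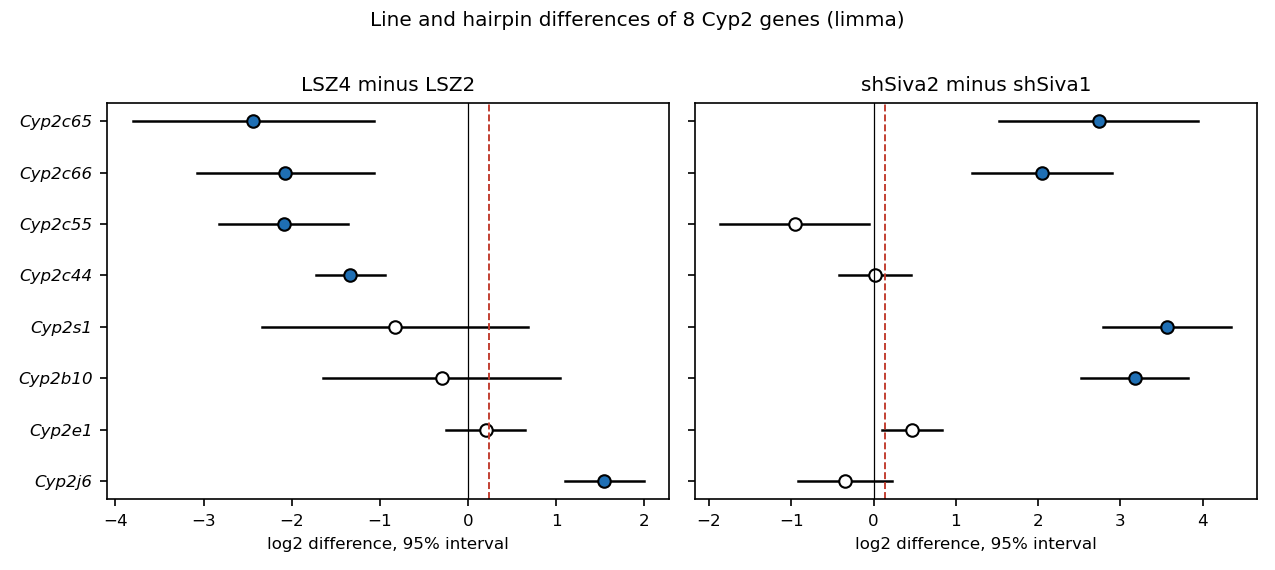
Log2 difference of 8 Cyp2 genes between the lines (left) and between the Siva hairpins (right), with 95% intervals from limma; filled circles passed at an adjusted p of 0.05 and the dashed line is the median of all genes tested. The 4 Cyp2c genes lie left of 0 in the line comparison, and Cyp2c65, Cyp2c66, Cyp2s1 and Cyp2b10 lie right of 0 in the hairpin comparison.

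Cyp2c65, Cyp2c66, Cyp2s1 and Cyp2b10 were higher with shSiva2 than with shSiva1. The comparison asked whether the hairpins against the same gene gave the same levels, with the line held fixed. In limma's test 4 of the 8 genes passed, all of them higher with shSiva2, where 20.8% of all genes passed, 10.9% higher and 9.93% lower. The median difference was 1.26 over the 8 genes and 0.14 over all genes. The shSiva arrays were part of the effect known when the genes were picked, so count and median are not independent of that choice. Cyp2s1 was 11.9-fold higher with shSiva2 (log2 difference 3.57, SE 0.36, adjusted p = 8.94e-06), Cyp2c65 was 6.67-fold higher (2.74, SE 0.56, adjusted p = 0.00299, and 4.99-fold with values raised to the floor) and Cyp2c66 was 4.13-fold higher (2.05, SE 0.40, adjusted p = 0.00196). Cyp2b10 was at least 3.59-fold higher (measured means -3.46 and -6.64, adjusted p = 5.17e-06). Its 4 measured arrays are the 4 shSiva2 arrays, so it could be tested only because it was bright there. Cyp2b10 therefore adds no support to the count of 4 genes or to the median of 1.26, which both include it. The groups did not overlap for Cyp2s1 and Cyp2b10, though the shSiva1 values of Cyp2b10 were all below background. The share of all genes whose groups do not overlap, here or between the lines, was not counted. Cyp2c55 (-0.96, adjusted p = 0.129), Cyp2e1 (0.47, adjusted p = 0.0649), Cyp2j6 (-0.35, adjusted p = 0.386) and Cyp2c44 (0.02, adjusted p = 0.961) did not pass, with 95% intervals from -1.86 to -0.05, from 0.11 to 0.84, from -0.92 to 0.22 and from -0.42 to 0.46.

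All 4 genes that passed were higher with shSiva2 in both lines. For Cyp2b10, which was tested only because of its shSiva2 arrays, this and its calls below add no support. In LSZ2, where 8.96% of all genes passed, Cyp2s1 was 6.49-fold higher with shSiva2 (2.70, adjusted p = 3.27e-05) and Cyp2b10 passed (adjusted p = 0.000563), whereas Cyp2c65 (1.04, adjusted p = 0.301) and Cyp2c66 (0.80, adjusted p = 0.193) did not. In LSZ4, where 15.8% passed, Cyp2s1 was 21.8-fold higher (4.44, adjusted p = 9.14e-07), Cyp2c65 higher (4.44, adjusted p = 0.000164) and Cyp2c66 9.82-fold higher (3.30, adjusted p = 6.41e-05), and Cyp2b10 passed (adjusted p = 8.43e-06). As 1 of the 2 shSiva1 values of Cyp2c65 in LSZ4 was below background, its fold is given with that value raised to the floor, which was 12.1 (3.60, adjusted p = 5.52e-05). With the replicate number of the LSZ4 arrays as a block, Cyp2c55 (-1.29) and Cyp2j6 (-0.55) passed as well (adjusted p = 0.0254 each), in the direction opposite to the other 4. A test of the difference between the lines, added after the levels had been seen, called 0 of the 8 genes and 0.157% of all genes. There, the hairpin difference in LSZ4 less that in LSZ2 was 3.40 for Cyp2c65 (adjusted p = 0.152), 2.50 for Cyp2c66 (0.0768), 1.75 for Cyp2s1 (0.0724) and, from levels partly below background, 1.76 for Cyp2b10 (0.232). With values raised to the floor, where 0.327% of all genes passed, Cyp2c66 (2.50) and Cyp2s1 (1.75) passed (adjusted p = 0.0490 each). Both were above background on all 15 arrays, so their own values were unchanged by this. Cyp2c65 did not pass (2.57, adjusted p = 0.0957), and Cyp2b10 was 0.04 (adjusted p = 0.979). At an unadjusted p under 0.05 these 4 genes passed, as did 4.38% of all genes.

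The depth of knockdown also differed between the hairpins. Siva1 was 0.84 higher with shSiva2 than with shSiva1 (SE 0.27, limma's adjusted p = 0.0413), and 13.1% of the control level remained with shSiva1 against 23.5% with shSiva2. Some marker lists moved with the hairpin as well, where 20.8% of all genes passed, 10.9% higher and 9.93% lower. Of the 7 gut epithelium markers tested 4 were higher and 2 lower with shSiva2, and their summed level ran from 5.99 to 7.57 with shSiva1, from 8.97 to 9.86 with shSiva2 and from 8.87 to 10.1 in controls. Of the 4 alveolar type 2 markers tested 2 were higher and 0 lower, and their summed level ran from 5.59 to 5.81 with shSiva1 and from 6.08 to 6.23 with shSiva2, with no overlap. Of the 3 club cell markers tested 2 were higher and 1 lower, with summed levels from 4.03 to 6.94 and from 3.18 to 4.31. The counts past the threshold were 2 of 6 epithelial, 1 of 5 hepatocyte, 1 of 5 blood, vessel and stroma and 0 of 3 stomach markers. For the hepatocyte and the blood, vessel and stroma lists this is 20% each, near the share of all genes. The part of the knockdown or of these markers in the Cyp2 differences was not tested. With normexp background correction the differences shrank to 1.40 for Cyp2c65, 1.24 for Cyp2c66 and 0.77 for Cyp2b10, with their calls kept.

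Between the control hairpins, 0 of the 8 Cyp2 genes passed limma's test, where 0.00437% of all genes passed. This comparison sets puromycin-selected shGFP cells against shLacZ cells that were not selected. At an unadjusted p under 0.05, 2 of the 8 genes passed, Cyp2e1 (0.84 higher with shGFP, adjusted p = 0.331) and Cyp2c44 (-0.62, adjusted p = 0.331), as did 11.1% of all genes. The 95% intervals of shGFP less shLacZ ran from -1.50 to 1.13 for Cyp2c65, from -1.08 to 0.78 for Cyp2c66 and from -0.64 to 1.05 for Cyp2s1.

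The Siva effect, shSiva less control, was also compared between the lines, and 0 of the 8 genes passed limma's test for that difference, where 0% of all genes passed. At an unadjusted p under 0.05, 0 of the 8 genes and 2.24% of all genes passed. The 95% intervals ran from -3.22 to 2.48 for Cyp2c65 and from -1.93 to 2.27 for Cyp2c66. They ran from -2.85 to 3.47 for Cyp2s1 and from -3.03 to 2.59 for Cyp2b10. These genes differed between the Siva hairpins, which this fit pooled. With intervals this wide, the test does not show that their Siva effect was alike in both lines.

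As a description of how the genes were chosen, shSiva less control over both hairpins was -2.84 for Cyp2c65, -2.57 for Cyp2c66 and 0.71 for Cyp2j6, the 3 of the 8 past the threshold, with 9.55% of all genes past it. The call for Cyp2j6 was lost without any 1 of 13 of the 15 arrays. With shSiva1 alone (24.7% of genes past the threshold) Cyp2c65 was -4.20, Cyp2c66 -3.60, Cyp2s1 -3.47, Cyp2c55 1.31 and Cyp2j6 0.89. With shSiva2 alone (11.9%) Cyp2c66 was -1.55, and Cyp2b10 was at least 2.33-fold above shGFP and at least 2.82-fold above shLacZ (adjusted p = 3.76e-06 against the controls together), while Cyp2c65 (-1.47, adjusted p = 0.0649) was not past the threshold. These comparisons share the control arrays, so their values are not independent of each other.

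Across the 15 arrays Cyp2c65 and Cyp2c66 had r = 0.98, and r = 0.99 over the 13 arrays left without the LSZ4 shSiva1 arrays, which lie farthest from the median. As the Cyp2c66 signal may hold Cyp2c65 transcript, these may not be separate measurements. Cyp2c65 and Cyp2s1 had r = 0.84, which dropped to 0.55 without the LSZ4 shSiva1 arrays and so rests partly on them. Cyp2c55 and Cyp2c44 had r = 0.73, and Cyp2j6 ran against Cyp2c65 (r = -0.70) and Cyp2c44 (r = -0.72). As Cyp2c55 was above background on 10 arrays and Cyp2c44 on 6, their r values rest partly on values below background. All are descriptions, as the arrays share lines, hairpins and slides and fall into separate groups.

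**Figure D3:**
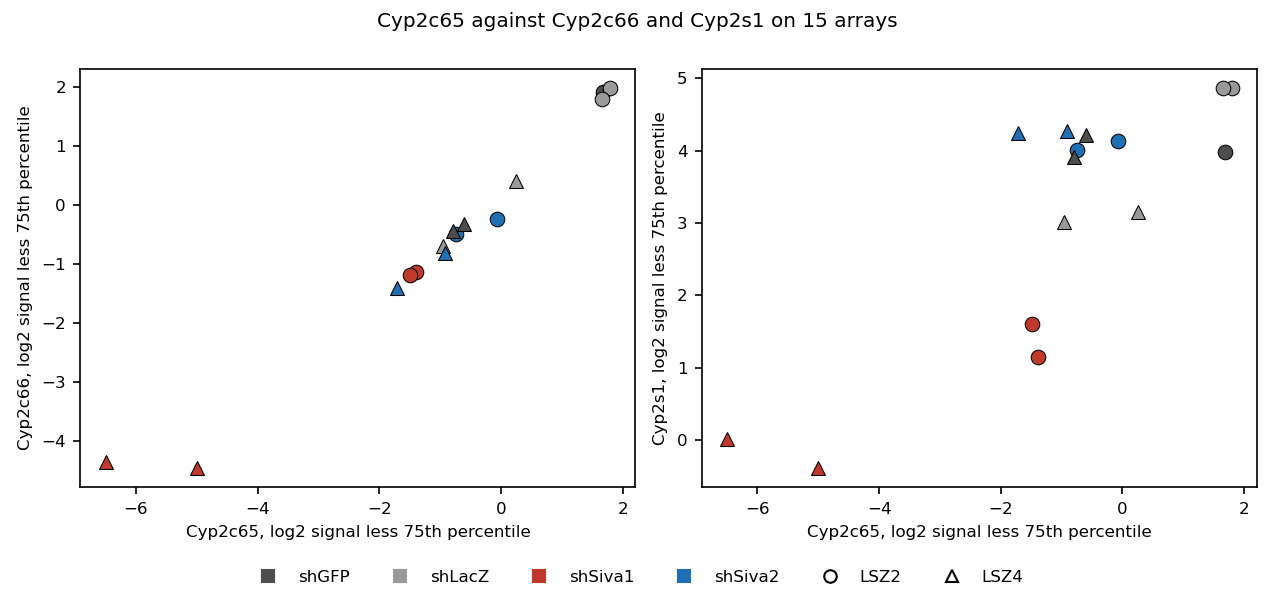
Cyp2c66 (left) and Cyp2s1 (right) against Cyp2c65 on 15 arrays, all as log2 signal less the array's 75th percentile; colour gives the hairpin and shape the line. The Cyp2c pair lies close to a straight line except on the LSZ4 shSiva1 array where Cyp2c65 is below background, whereas Cyp2s1 sets the shSiva1 arrays apart from the rest.

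The genes whose levels over the 15 arrays were most like each Cyp2 gene were searched among 13620 tested genes with an ordinary symbol, ranked by r. Cyp2c65 was most like Cyp2c66, then Tmigd1 (r = 0.97) and Ceacam2 (0.95), and Cyp2c66 was most like Cyp2c65, then Tmigd1 (0.96) and the fatty acid receptor gene Ffar4 (0.95). Cyp2s1 was most like Degs2, Lrrc26 and Tmem19 (each 0.97). Cyp2b10 was most like Palm3 (0.99), the glutathione transferase gene Gsta3 (0.97) and the TGF-beta receptor gene Tgfbr2 (0.96). Cyp2j6 was most like Cyp2j8 (0.99), Thoc7 and Gkap1 (each 0.96). Cyp2c55 was most like Zbtb18, Tex9 and Unc13c (0.97, 0.97 and 0.96), Cyp2c44 like Zfp82, Chrnb1 and Mtmr7 (0.94, 0.92 and 0.92), and Cyp2e1 like Iqcf1, Spata31d1a and Tssk4 (0.85, 0.85 and 0.83). Of the 15 arrays, Cyp2b10 was above background on 4, Cyp2c44 on 6, Cyp2c55 on 10 and Cyp2e1 on 11. The r values of these genes rest partly on values below background.

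Of 36 other Cyp2 genes on the array, 16 were tested. Between the lines 3 were higher in LSZ4 and 0 lower, a share of 18.8% where 20.3% of all genes passed, with a median of 0.35 over the 16 against 0.23 over all genes. Cyp2j8, of the same subfamily as Cyp2j6, was 1.48 higher in LSZ4 (adjusted p = 0.000196), Cyp2j13 was 1.58 higher (adjusted p = 0.0124) and Cyp2d34 was 1.63 higher (adjusted p = 0.0305). Cyp2j13 lost its call with normexp background correction (adjusted p = 0.395). With shSiva2 against shSiva1, 0 were higher and 1 was lower (6.25% where 20.8% of all genes passed), Cyp2d26 (-2.45, adjusted p = 0.000541). For shSiva less control, as values only, Cyp2c67 was -1.11, Cyp2r1, a vitamin D hydroxylase, -0.83, Cyp2j8 0.70 and Cyp2c70, which acts on bile acids, -0.51.

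Among 24 tested P450 genes of other families, 4 were higher and 2 lower in LSZ4, a share of 25%, near the 20.3% of all genes. Cyp1a1, the classical target of the dioxin receptor, was -1.84 (adjusted p = 0.000304) and Cyp3a13 -1.03 (adjusted p = 0.0338), while Cyp26b1, which breaks down retinoic acid, was 1.60 (adjusted p = 0.00186) and Cyp3a11 0.56 (adjusted p = 0.0241). Between the Siva hairpins 0 were higher and 5 lower with shSiva2, a share of 20.8% that equals the 20.8% of all genes, among them Cyp39a1, an oxysterol hydroxylase (-2.60, adjusted p = 6.08e-05), and Cyp21a1, the steroid 21-hydroxylase (-1.96, adjusted p = 6.63e-05). Cyp39a1 lost its call with normexp correction (adjusted p = 0.363).

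Of 17 tested genes for electron supply and haem, 4 were higher in LSZ4 and 0 lower, a share of 23.5%, near the 20.3% of all genes. Por, the reductase that serves microsomal P450 enzymes, was 0.94 higher (adjusted p = 0.0150), the haem oxygenase Hmox1 0.80 higher (adjusted p = 0.0195), Cyb5r3, which reduces cytochrome b5, 0.82 higher (adjusted p = 0.0211) and Pgrmc2, a haem-binding protein, 0.58 higher (adjusted p = 0.00889). In the hairpin comparison 1 was higher with shSiva2 (5.88% against 20.8% of all genes), Cpox (0.49, adjusted p = 0.0370), an enzyme of haem synthesis, and it lost its call with median scaling (adjusted p = 0.0549).

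Of 10 tested genes for the release of arachidonic acid and the hydrolysis of its epoxides, 4 were higher and 1 lower in LSZ4, where 13.3% of all genes were higher and 7.04% lower. Pla2g4a, the phospholipase that frees arachidonic acid, was -1.15 (adjusted p = 0.0131), whereas Pla2g6 was 0.74 (adjusted p = 0.0147), the epoxide hydrolase Ephx3 0.42 (adjusted p = 0.0317) and Alox5ap, which presents arachidonic acid to 5-lipoxygenase, 0.90 (adjusted p = 0.0400). Ephx1, also among the higher genes, lost its call with quantile normalization (adjusted p = 0.523), median scaling (0.0533) and normexp (0.466). Between the Siva hairpins 1 of the 10 was higher with shSiva2, where 10.9% of all genes were, Ephx2, the soluble epoxide hydrolase (0.95, adjusted p = 0.00628).

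Among 27 tested transcription factors that act on P450 genes, 1 was lower in LSZ4 and 0 were higher (3.7%, where 20.3% of all genes passed). Ahrr, the repressor of the dioxin receptor, was the gene that passed (adjusted p = 0.000439), but it was above background on 5 of 7 LSZ2 and 0 of 8 LSZ4 arrays and no fold is given. In shSiva2 cells 7 were higher and 5 lower than in shSiva1 cells, 12 of 27, where 10.9% of all genes were higher and 9.93% lower. Vdr, the vitamin D receptor, was -3.66 (SE 0.19, adjusted p = 3.03e-08), with a mean of -0.13 with shSiva1 and -3.79 with shSiva2. Nr1h4, the bile acid receptor FXR, was -3.39 (SE 0.13, adjusted p = 2.44e-09), from a mean of 4.32 with shSiva1 to 0.93 with shSiva2. With normexp correction 10 of the 12 were still past the threshold, and Hnf4g and Cdx1 were not.

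**Figure D4:**
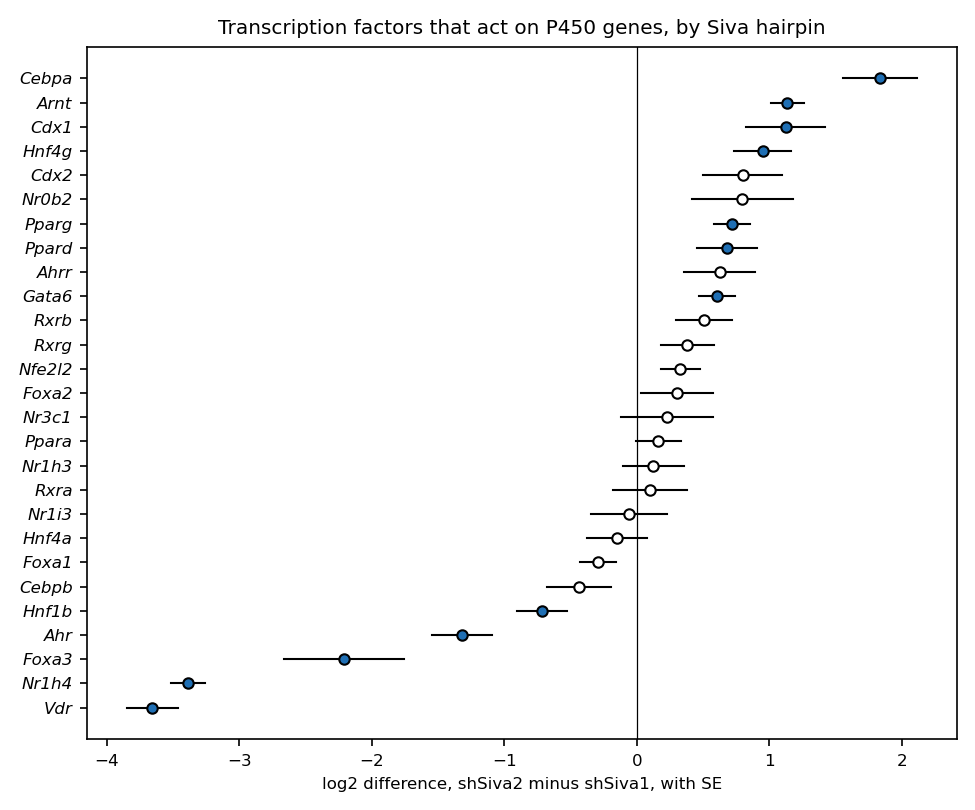
Log2 difference, shSiva2 less shSiva1, of 27 transcription factors that act on P450 genes, with the SE; filled circles passed limma's test at an adjusted p of 0.05. Vdr (-3.66) and Nr1h4 (-3.39) lie far below 0 and 7 filled genes lie above it.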

How the data were processed

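Scanner files of 15 arrays hold, per their file headers, the spot intensity that Feature Extraction 10.7.3.1 reports as processed signal, as deposited by the authors. RNA (200 ng) was labelled with Cy3, per the labels. The deposited value table holds log2 values centred on each probe's median over the arrays, and served as an alternative. At least 99.6% of its values lay within 0.01 of the same quantity computed from the scanner files. Control spots and outlier spots were left out, spots of a probe were averaged, and the 75th percentile of the array was subtracted after taking log2. Probes were tested if 4 or more arrays showed them above background and no more than 3 lacked a value (32188 of 55681), each gene by its probe with the highest mean (22908 genes). Symbols of 26582 probes came from accessions through RefSeq, the others from the files.

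Every fit used the 15 arrays together in limma 3.58.1 (R 4.3.3), p-values were adjusted by Benjamini-Hochberg across the genes tested, and the threshold was 0.05. Terms were line and arm, line and 4 hairpins, or means of each line and arm. On simulated data the line fit recovered 83 of 100 genes changed by 1 on the log2 scale, and the hairpin fit 54. The control fit recovered 49 and the fit of the Siva effect between lines 22. The simulated noise had the spread of the fit with 4 hairpins, and no other differences between hairpins were put in. Where hairpins of an arm differ, these rates are therefore too high for the line fit and the fit of the Siva effect. The number of arrays limits the precision. Members, gene lists and tests were chosen with earlier results of these data known. Named genes were all 10 members, from each list up to 4 genes with the smallest p in the line and the pooled Siva comparison and up to 2 in others, markers of the tissue, and the 3 genes most like each member. Genes named for a lost call or from a count of 5 or fewer fell partly outside this rule and were chosen after their values were seen. A listed gene and a motif are not reported here. Alternatives covered scaling, background, filter, probe choice, blocks, covariate and single arrays left out.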

Additional observations from a re-analysis of the deposited data

Results flagged for a closer look

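On the second Cyp2e1 probe, LSZ4 shLacZ replicate 1 read -6.24, far from the other 3 shLacZ arrays (-4.41 to -4.21), and it was not well above background there. For Cyp2d22, LSZ2 shSiva1 replicate 2 read -4.75, far from the other LSZ2 arrays with a Siva hairpin (-5.85 to -5.69), and it was the only array where this gene was above background. Among 52 groups of 4 arrays checked for a value that stands apart, chance alone gives about 1 in 20. Groups with fewer than 4 arrays were not checked.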

How the results depend on the processing

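Of the 4 comparisons with a test, the number of Cyp2 genes past the threshold moved by over 1.5 times in 3 cases. With probes above background on all 15 arrays, where 3 of the genes could be tested, it was 2 between the lines (Cyp2c66 and Cyp2j6) and 2 between the Siva hairpins (Cyp2c66 and Cyp2s1). With array brightness as a covariate it was 2 between the lines (Cyp2c44 and Cyp2j6), and the cause was not tested. Leaving out single arrays gave 4 to 5 genes between the lines, 4 to 5 between the Siva hairpins, 0 to 0 between the controls, 0 to 0 for the Siva effect between the lines, and 2 to 4 for the pooled description. No gene past the threshold changed sign in any setting run. Of 1071 values of single genes under other settings, 62 changed sign, all of differences that passed in neither setting and were at most 0.62 in size.

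The count over all genes was less stable. Between the lines it was 4656, and it moved by over 1.5 times on leaving out any 1 of 12 of the 15 arrays, from 1252 (without LSZ2 shLacZ replicate 1) to 12042 (without LSZ4 shLacZ replicate 1). It was 979 with each line and hairpin as a random block, 1002 with the covariate, 8382 with no filter and 8412 with 4 hairpins as terms. Of the line calls, 65.4% were higher in LSZ4, against 54.5% with quantile normalization, 55.1% with normexp, 80.0% with no filter, 51.0% with the random block and 34.9% with the covariate. The median line difference of all genes was 0.23 and with quantile normalization 0.07. With no filter Cyp2f2 also passed between the lines (adjusted p = 0.0445), although no array measured it above background. Between the Siva hairpins the count was 4775, and 9802 with the covariate. For the pooled description it was 2188, and 3611 without LSZ4 shLacZ replicate 1, 901 with the random block and 6658 with the covariate. Cyp2e1 passed between the hairpins with quantile normalization (adjusted p = 0.0347), and without LSZ2 shLacZ replicate 1 (0.0484) or LSZ4 shSiva1 replicate 2 (0.0335), and Cyp2c55 with normexp (0.0372). With values below background raised to the floor, 4 genes passed between the lines (Cyp2c44 lost), where 25.9% of all genes passed. Between the hairpins 6 then passed (Cyp2c55, adjusted p = 0.0292, and Cyp2e1, 0.0446, added), where 21.5% of all genes passed.

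Replicate numbers paired the samples in part, and were not in the main fits. Deviations of same-numbered arrays correlated from -0.21 to 0.73 over 21 pairs of groups, 14 of them over 0.1. Within LSZ4 all 6 pairs were over 0.1 (0.17 to 0.73). Across the lines, LSZ2 shSiva1 correlated with LSZ4 shSiva1 (0.69) and LSZ4 shLacZ (0.66). Every negative value involved LSZ2 shSiva2, the lowest being with LSZ4 shSiva1 (-0.21). With the replicate number of the LSZ4 arrays as a block, the hairpin comparison within LSZ4 called 6 of the 8 genes, with Cyp2c55 (-1.29, adjusted p = 0.0254) and Cyp2j6 (-0.55, adjusted p = 0.0254) added, and 7205 genes in all. With the replicate number as a block, 5 genes passed between the lines, 6 between the hairpins (Cyp2c55 and Cyp2e1 added, adjusted p = 0.0493 and 0.0450), 0 between the controls, 0 for the Siva effect between the lines and 3 in the pooled description. The count over all genes was then 6030 between the lines and 6715 between the hairpins. Values near background have little precision: 5 of the 8 genes tested were below it on at least 1 array.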
